A study of Mus musculus with 6 samples.

Results

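Collagen chain genes were taken as every row of the count table whose symbol has the form of a mouse collagen chain (Col, a type number, a and a chain number), which gave 44 of 21760 gene symbols. By class, 11 of them encode fibrillar chains, 6 the type IV chains of basement membranes, 2 the multiplexins XV and XVIII of the basement membrane zone, 6 the type VI chains of beaded filaments, 9 fibril-associated chains (FACIT) and 10 other chains. Of the 44 chains, 30 passed the filter on low counts and were tested, and 14 did not. The 14 untested chains never exceeded 0.969 CPM (counts per unit of scaled library size, as described under the processing), a value reached by Col28a1 in 1 library.

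Collagens are the main structural proteins of the extracellular matrix. Each molecule is a triple helix of chains, which are hydroxylated in the endoplasmic reticulum, secreted as procollagens, trimmed and crosslinked. Fibrillar collagens give tensile strength, type IV collagen forms the sheet of basement membranes, and type VI collagen forms beaded filaments at the border of the pericellular matrix. In tumours fibroblasts are the best known source of fibrillar collagen, while macrophages take up and degrade collagen and are known to make some chains themselves, type VI among them.

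The RNA came from macrophages isolated by flow cytometry out of MC38 tumours, which arise from a mouse colon carcinoma line and were grown under the skin of C57BL6 mice for 16 days. In the WT group (2 mice) the tumour was wild type. In the KO groups the tumour lacked Xkr8, a scramblase that brings phosphatidylserine to the surface of dying cells, and came from KO clone 1 (2 mice) or KO clone 2 (2 mice). The series compares macrophages of tumours with and without this exposure, the mice themselves are not labelled as altered, and the sources used here give no age, no sex and no gating markers. Each KO arm is 1 tumour clone, so traits of a clone cannot be told apart from loss of Xkr8 within it.

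1 library, WT mouse 2, differed from the rest, with 20038047 counts against 37090034 to 40022755, 24.6% of counts on the pre-ribosomal RNA Rn45s against 1.46% to 7.12%, and 16810 symbols with a count against 18193 to 19250. The comparisons of the chains with WT are therefore also given without this library. WT is then mouse 1 alone, so the standard errors (SE) and calls of those fits rest on the spread among KO libraries. They assume that the lone WT library varies alike, and are not comparable with those from all 6 libraries. Xkr8 itself had 6.05 to 6.90 CPM in the WT libraries against 4.14 to 6.97 CPM in the KO libraries, and since the knockout is in the tumour cells its level in macrophages does not check the labels. The macrophage markers Adgre1 and Csf1r stood at 528 to 966 CPM and 1059 to 1633 CPM over the 6 libraries.

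Collagen RNA made up 0.54% to 2.05% of the scaled libraries. Below, the values of a group are given for mouse 1 and then mouse 2. The summed collagen level was 7907 and 20526 CPM in WT, 5398 and 8253 CPM in clone 1, and 7660 and 8421 CPM in clone 2. WT mouse 1 thus lay inside the range of the 4 KO libraries, and WT mouse 2 was the highest library. A single gene, Col3a1, gave 34.0% to 38.9% of the collagen counts in the KO libraries, 46.0% in WT mouse 1 and 55.2% in WT mouse 2. In this bulk RNA, fewer cells of a type and less RNA per cell cannot be told apart.

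**Figure D1:**
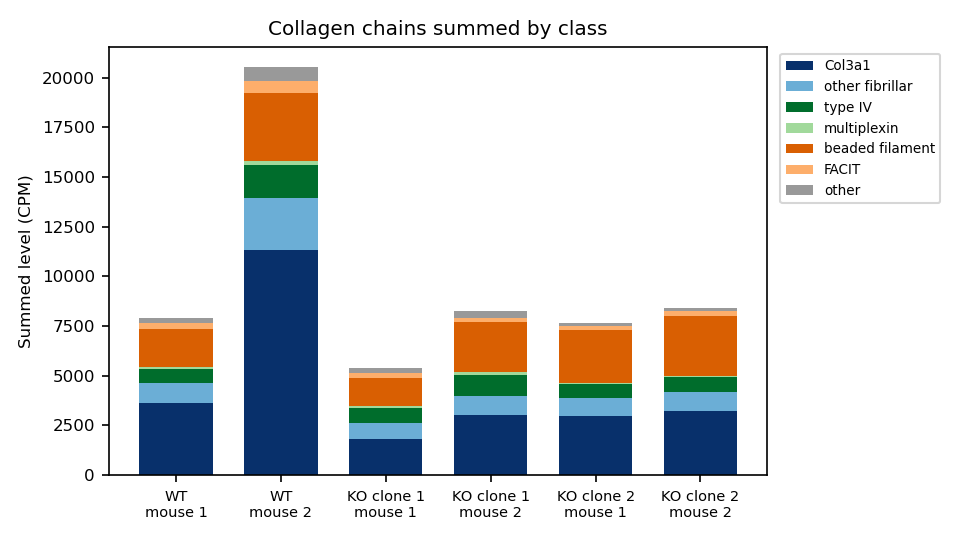
Summed level (CPM, linear axis from 0) of the collagen chains in each of the 6 libraries, stacked by class with Col3a1 drawn apart from the other fibrillar chains. WT mouse 2 reaches 20526 CPM and the other 5 libraries lie between 5398 and 8421 CPM, with Col3a1 and the beaded filament chains as the tallest segments.

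Fibrillar chains summed to 48.1% to 50.9% of collagen counts in the KO libraries, 58.5% in WT mouse 1 and 67.9% in WT mouse 2. Type VI chains came second, with 16.9% to 36.1%, and their smallest share was in WT mouse 2. Type IV chains took 8.18% to 14.2%, with both clone 1 libraries (14.2% and 12.7%) above the other 4. FACIT chains took 2.38% to 4.15%, the multiplexins 0.510% to 1.96% and the remaining chains 2.18% to 5.12%. Divided by the length of the longest coding transcript, the median level over the 6 libraries was 560 CPM per kb for Col3a1, 334 for Col6a1, 150 for Col6a2, 80.4 for Col5a1, 69.7 for Col4a1, 47.7 for Col6a3, 45 for Col4a2 and 31.1 for Col5a3. On the same scale Col1a1 stood at 5.0 and Col1a2 at 4.86 CPM per kb, although type I is the most abundant collagen of most connective tissues. Neighbours in this order such as Col4a2 and Col6a3 were not separated beyond the spread between libraries.

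**Figure D2:**
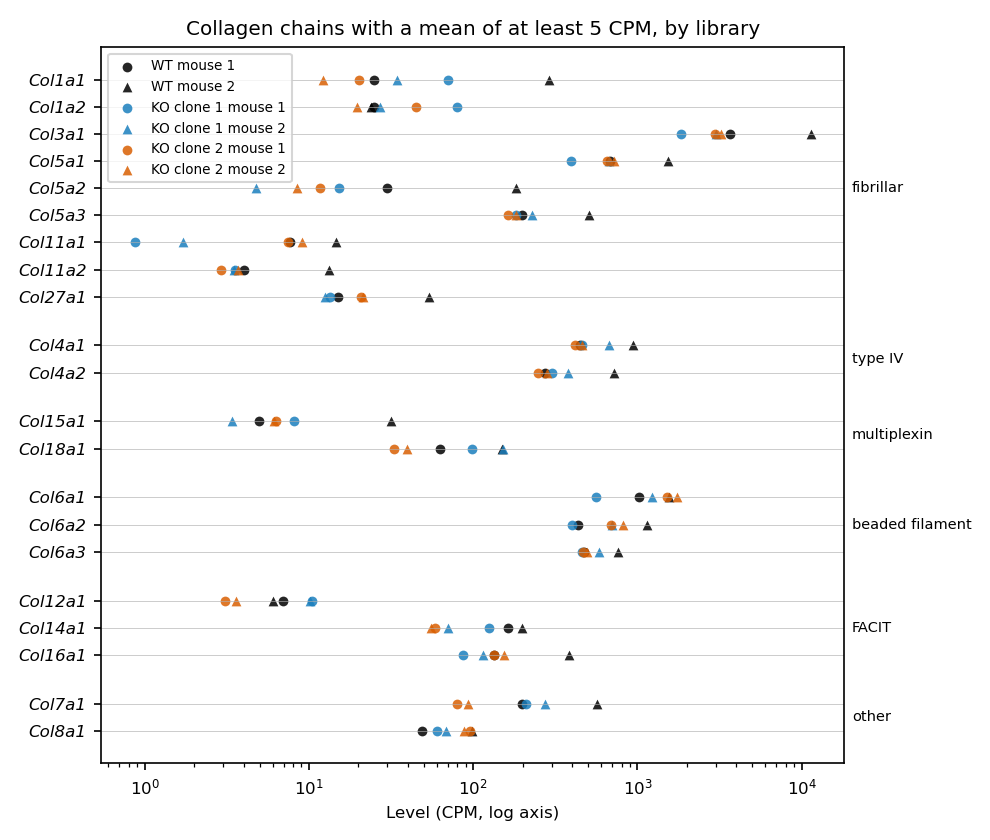
Level (CPM, log axis) of the 21 collagen chains with a mean of at least 5 CPM, 1 row per chain grouped by class and 1 point per library (circle for mouse 1, triangle for mouse 2, colour for the group). The WT mouse 2 point is the rightmost for 17 of the 21 chains, and the WT mouse 1 point lies within the 4 KO points for 16.

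Col3a1 encodes the single chain type of collagen III, a homotrimer of soft tissues. The gene lies at chr1:45311538-45349706 on the plus strand (GRCm38, GENCODE M21). Its level was 3634 and 11320 CPM in WT, 1837 and 3012 CPM in clone 1, and 2980 and 3215 CPM in clone 2. Both WT libraries lay above all 4 KO libraries, and the step from WT mouse 1 to the highest KO library was smaller than the step between the WT libraries. The window around its start is shown because Col3a1 alone carries the largest share of the collagen signal (RefSeq, GRCm38.p6, chr1:45311288-45311587, plus strand, 250 bases before the start and 50 after it). Capitals mark the match to TATAAA found by the motif search described with the type IV pair.
Col3a1: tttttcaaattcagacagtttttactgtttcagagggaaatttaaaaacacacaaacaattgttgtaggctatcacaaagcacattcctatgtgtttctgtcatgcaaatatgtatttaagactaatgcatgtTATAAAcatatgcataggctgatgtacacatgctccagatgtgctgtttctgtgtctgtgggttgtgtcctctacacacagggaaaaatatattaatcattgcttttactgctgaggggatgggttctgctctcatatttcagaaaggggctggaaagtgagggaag

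The other fibrillar chains were less abundant. Col5a1 and Col5a3 encode chains of type V collagen, which sits inside type I and III fibrils and sets their diameter. Col5a1 stood at 684 and 1531 CPM in WT, 396 and 667 CPM in clone 1, and 653 and 722 CPM in clone 2, with WT mouse 1 inside the KO range. Col5a3 stood at 198 and 504 CPM in WT, 183 and 227 CPM in clone 1, and 162 and 182 CPM in clone 2, again with WT mouse 1 inside that range. Col5a2, the partner of Col5a1 in the common type V trimer, lies 24.6 kb from Col3a1 on chromosome 1 and on the other strand. It stood at 30.0 and 181 CPM in WT against 15.3 and 4.77 CPM in clone 1 and 11.6 and 8.46 CPM in clone 2, so that the WT and KO libraries did not overlap.

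The type I chains had low levels in most libraries and parted most in WT mouse 2. Col1a1 stood at 24.9 and 291 CPM in WT, 70.2 and 34.4 CPM in clone 1, and 20.1 and 12.2 CPM in clone 2. Col1a2 stood at 25 and 23.9 CPM in WT, 79.3 and 27.0 CPM in clone 1, and 44.6 and 19.6 CPM in clone 2. Type I collagen is built from 2 Col1a1 chains and 1 Col1a2 chain, and the ratio of their levels per kb was 0.407 to 1.15 in 5 libraries and 11.0 in WT mouse 2. The high Col1a1 value of that library therefore had no counterpart in Col1a2.

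Col11a1, a minor fibrillar chain of cartilage that is also known from the stroma of carcinomas, stood at 7.64 and 14.6 CPM in WT, 0.872 and 1.72 CPM in clone 1, and 7.48 and 9.07 CPM in clone 2. Clone 1 lay below the other 4 libraries, and clone 2 lay around WT mouse 1. The gene is at chr3:114030540-114220718 on the plus strand. Its window is shown because it had the largest difference between the clones among chains with a mean of at least 5 CPM (RefSeq, GRCm38.p6, chr3:114030290-114030589, plus strand, capitals for motif matches).
Col11a1: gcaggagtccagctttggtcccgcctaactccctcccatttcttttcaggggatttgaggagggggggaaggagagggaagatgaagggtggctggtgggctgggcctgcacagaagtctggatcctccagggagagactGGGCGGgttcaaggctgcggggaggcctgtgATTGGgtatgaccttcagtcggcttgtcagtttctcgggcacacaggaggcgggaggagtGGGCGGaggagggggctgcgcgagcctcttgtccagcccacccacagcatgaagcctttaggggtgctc
Its partner Col11a2 stood at 4.0 and 13.3 CPM in WT, and its KO libraries ranged from 2.90 to 3.70 CPM. Col27a1, another cartilage chain, stood at 15 and 53.5 CPM in WT, and among the KO libraries clone 2 (20.7 and 21.4 CPM) lay above clone 1 (13.5 and 12.6 CPM). The remaining fibrillar chains, Col2a1 and Col24a1, were not tested.

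Col4a1 and Col4a2 encode the ubiquitous type IV trimer and were the only type IV chains with a mean of at least 5 CPM. Col4a1 stood at 449 and 944 CPM in WT, 462 and 667 CPM in clone 1, and 418 and 461 CPM in clone 2. Col4a2 stood at 275 and 722 CPM in WT, 301 and 375 CPM in clone 1, and 247 and 280 CPM in clone 2. In both genes WT mouse 1 lay inside the KO range. The clone 1 libraries lay above the clone 2 libraries, for Col4a1 only by 462 against 461 CPM, and 22.7% of all genes had this order. Their ratio per kb was 1.59 and 1.27 in WT, 1.5 and 1.73 in clone 1, and 1.65 and 1.60 in clone 2. Its highest and lowest values differed 1.36-fold, against 27.0-fold for Col1a1 over Col1a2, 16.6-fold for Col5a1 over Col5a2 and 1.71-fold for Col6a1 over Col6a2. The 27.0-fold range rests on WT mouse 2 (11.0), since the other libraries lay between 0.407 and 1.15.

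The pair is arranged head to head on chromosome 8, with Col4a1 at chr8:11198423-11312826 on the minus strand and Col4a2 at chr8:11312805-11449287 on the plus strand. Their annotated starts are 21 bases apart, so the windows around both starts share 78 bases. These are shown because the levels of both genes kept the steadiest ratio of the chain pairs compared (RefSeq, GRCm38.p6, chr8:11312777-11313076 and chr8:11312555-11312854, each on its gene's own strand). Capitals mark the shared stretch, which reads as its reverse complement in the other window.
Col4a1: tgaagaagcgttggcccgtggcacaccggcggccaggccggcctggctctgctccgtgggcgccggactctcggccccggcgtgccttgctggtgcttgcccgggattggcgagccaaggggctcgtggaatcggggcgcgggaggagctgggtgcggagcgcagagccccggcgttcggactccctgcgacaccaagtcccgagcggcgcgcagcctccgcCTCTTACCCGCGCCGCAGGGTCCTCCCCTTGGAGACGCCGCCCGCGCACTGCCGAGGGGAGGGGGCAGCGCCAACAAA
Col4a2: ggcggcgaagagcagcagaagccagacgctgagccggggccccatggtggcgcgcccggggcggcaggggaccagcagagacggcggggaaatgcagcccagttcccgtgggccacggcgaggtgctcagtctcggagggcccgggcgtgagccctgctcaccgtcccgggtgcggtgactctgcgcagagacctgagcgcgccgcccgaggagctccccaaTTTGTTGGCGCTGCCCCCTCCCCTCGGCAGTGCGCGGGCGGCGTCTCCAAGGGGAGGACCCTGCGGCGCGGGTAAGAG
The exons of both genes overlap at their starts, and whether reads were assigned by strand is not stated, so reads from that stretch cannot be told apart.

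Promoter windows were listed for 35 of the 44 chains, 38 windows in all. They were searched for the CCAAT box, for the GC box GGGCGG and for the TATA box TATAAA. A match on either strand counted, and overlapping matches were kept. CCAAT occurred in 34.2% of the collagen windows and in 37.4% of all 32851 windows. GGGCGG occurred in 60.5% of the collagen windows against 35.7% of all, and TATAAA in 13.2% against 13.6%. A match describes the letters of the window and is not a site. The Col3a1 window has 1 TATAAA match and none of the others, and its GC content is 37.7%, against 74.0% and 73.7% for the type IV pair.

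The chains of kidney-type basement membrane had low levels. Col4a5 stood at 6.08 and 10.7 CPM in WT, 2.64 and 3.33 CPM in clone 1, and 2.82 and 3.49 CPM in clone 2, with both WT libraries above all KO libraries. Its mean of 4.84 CPM lies just below the 5 CPM used for naming, so its test is given as one chosen after its values were seen. Col4a3 and Col4a4 never exceeded 1.93 CPM, and Col4a6 was not tested.

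Col18a1 encodes collagen XVIII, the precursor of endostatin. It stood at 62.9 and 150 CPM in WT, 97.8 and 151 CPM in clone 1, and 32.8 and 39.5 CPM in clone 2. Clone 2 lay below the other 4 libraries. Col15a1, the related collagen XV, stood at 4.94 and 31.4 CPM in WT, 8.12 and 3.41 CPM in clone 1, and 6.26 and 6.16 CPM in clone 2, so that WT mouse 2 alone was high.

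Type VI collagen is built from the chains of Col6a1, Col6a2 and Col6a3. Col6a1 stood at 1018 and 1560 CPM in WT, 557 and 1230 CPM in clone 1, and 1512 and 1735 CPM in clone 2, which makes it one of 4 chains of at least 5 CPM whose highest library was not WT mouse 2. Col6a2 stood at 433 and 1135 CPM in WT, 402 and 699 CPM in clone 1, and 691 and 811 CPM in clone 2. Col6a3 stood at 473 and 766 CPM in WT, 459 and 583 CPM in clone 1, and 469 and 492 CPM in clone 2. The WT and KO ranges overlapped for all 3 genes. Col6a4, an alternative chain related to Col6a3, stood at 1.87 and 4.33 CPM in WT, 8.46 and 7.53 CPM in clone 1, and 0.585 and 1.47 CPM in clone 2, and Col6a5 and Col6a6 were not tested.

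Among the FACIT chains, which lie on the surface of other fibrils, Col16a1 and Col14a1 were the most abundant. Col14a1 stood at 163 and 198 CPM in WT, 124 and 69.9 CPM in clone 1, and 58.8 and 55.0 CPM in clone 2. Its groups did not overlap, and it was one of the few chains at which the WT libraries lay close together. Col16a1 stood at 133 and 384 CPM in WT, 86.5 and 114 CPM in clone 1, and 133 and 153 CPM in clone 2, with WT mouse 1 at the level of clone 2. Col12a1 stood at 6.98 and 6.05 CPM in WT, 10.5 and 10.1 CPM in clone 1, and 3.10 and 3.61 CPM in clone 2. The clones thus lay on opposite sides of both WT libraries.

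Col7a1 encodes the anchoring fibrils that fasten epidermis to dermis. The gene is at chr9:108953586-108984875 on the plus strand, and its exons overlap the microRNA gene Mir711 on the same strand. It stood at 197 and 568 CPM in WT, 211 and 274 CPM in clone 1, and 80.2 and 92.4 CPM in clone 2, so that clone 2 lay below the other 4 libraries. The difference between the clones was not called with all 6 libraries. It was the largest in size among chains of the other types with a mean of at least 5 CPM. The window is shown for that reason (RefSeq, GRCm38.p6, chr9:108953336-108953635, plus strand, capitals for motif matches).
Col7a1: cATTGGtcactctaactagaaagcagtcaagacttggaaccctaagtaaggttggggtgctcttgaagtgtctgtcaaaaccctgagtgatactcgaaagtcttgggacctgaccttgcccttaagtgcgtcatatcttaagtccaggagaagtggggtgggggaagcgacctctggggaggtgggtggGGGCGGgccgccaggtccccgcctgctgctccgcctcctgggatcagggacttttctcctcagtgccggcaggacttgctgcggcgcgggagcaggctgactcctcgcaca
Col8a1, a short network-forming chain of vessel walls, stood at 49.0 and 98.9 CPM in WT, 60.4 and 67.9 CPM in clone 1, and 95.6 and 88.3 CPM in clone 2, and WT mouse 1 was the lowest library. Col10a1, Col17a1 and Col23a1 stayed at or below 3.23 CPM in every library.

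The comparison of KO with WT asks whether collagen RNA in tumour macrophages differs with Xkr8 in the tumour. Lower values in KO were frequent, with 26 of the 30 tested chains on the negative side and a median log2 fold change of -0.95, against 49.8% negative and a median of 0.00 over all genes tested. No chain passed the test, and the lower values were largely those of the KO libraries against WT mouse 2. With that library left out, 17 of the same 30 chains were negative and their median was -0.12. The KO mean of Col3a1 was 2761 ± 625 CPM (SD, n = 4) and the WT mean 7477 ± 5435 CPM (SD, n = 2).

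By edgeR's quasi-likelihood test with Benjamini-Hochberg adjustment over 15560 genes, 0 of 30 chains were called at 0.05, where 0.135% of all genes were called (0.00643% lower). At an unadjusted p under 0.05, 12 chains were lower, where 7.38% of all genes were, and 0 were higher, where 6.25% were. Without WT mouse 2 that held for 3 lower chains and 1 higher chain of the 30, with 2.98% and 5.6% of all genes. In 9 chains all KO libraries lay below both WT libraries (10.7% of all genes did so), and in 0 above (12.9%). Against WT mouse 1 alone, the KO libraries all lay lower for 10 chains (21.3% of all genes) and all higher for 1 (23.5%). DESeq2 called 4 of the 30 chains, Col5a2, Col4a5, Col14a1 and Col3a1, where it called 3.21% of all genes. Without WT mouse 1, so that WT was mouse 2 alone and the lone library was assumed to vary like the others, 17 chains and 37.5% of all genes were called.

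By class, the negative chains were 8 of 9 tested fibrillar, 5 of 5 type IV, 2 of 2 multiplexin, 3 of 4 type VI, 4 of 5 FACIT and 4 of 5 other chains. The class medians were -1.21 for fibrillar, -0.73 for type IV, -1.0 for multiplexin, -0.15 for type VI, -1.12 for FACIT and -0.36 for other chains. Type VI, the class with the second largest share of collagen counts, had the median nearest to that of all genes. Without WT mouse 2 the class medians were -0.19 for fibrillar, 0.10 for type IV, 0.29 for multiplexin, 0.42 for type VI, -0.66 for FACIT and -0.38 for other chains. The 4 positive chains were Col1a2, Col8a1, Col12a1 and Col6a4.

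The fold change with the smallest adjusted p was that of Col5a2, -3.39 ± 0.66 on the log2 scale (SE, adjusted p = 0.117), and it was -1.60 ± 0.46 without WT mouse 2. Col14a1 came to -1.23 ± 0.33 (adjusted p = 0.243) and to -1.11 ± 0.38 without that library. Col3a1 came to -1.44 ± 0.43 (adjusted p = 0.283) and to -0.42 ± 0.30 without it. Col4a5, named after its values were seen, came to -1.44 ± 0.29 (adjusted p = 0.122) and to -1.01 ± 0.26 without it. These 4 chains have both WT libraries above all 4 KO libraries, but none passed in either fit.

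The other chains of at least 5 CPM were also compared with and without WT mouse 2. Col1a1 moved from -2.20 ± 0.89 to 0.43 ± 0.80, Col15a1 from -1.59 ± 0.62 to 0.25 ± 0.42 and Col27a1 from -1.0 ± 0.46 to 0.16 ± 0.33. Col4a1 moved from -0.47 ± 0.32 to 0.14 ± 0.26 and Col4a2 from -0.73 ± 0.36 to 0.10 ± 0.23. The type VI chains moved from -0.03 ± 0.43 to 0.28 ± 0.52 for Col6a1, from -0.27 ± 0.41 to 0.56 ± 0.35 for Col6a2 and from -0.31 ± 0.23 to 0.06 ± 0.18 for Col6a3. The sign of all these values differed between the fits, and none was called in either. Col16a1 (-1.09 ± 0.39 to -0.16 ± 0.28), Col5a1 (-0.86 ± 0.35 to -0.19 ± 0.30) and Col5a3 (-0.90 ± 0.34 to -0.09 ± 0.19) kept the sign at a smaller size. Col11a2 (-1.32 ± 0.42 to -0.25 ± 0.27), Col7a1 (-1.22 ± 0.57 to -0.29 ± 0.61) and Col11a1 (-1.21 ± 0.83 to -0.70 ± 1.02) did so too. Col18a1 went from -0.40 ± 0.63 to 0.33 ± 0.77 and Col8a1 from 0.08 ± 0.31 to 0.65 ± 0.27. Col1a2 (0.80 ± 0.52 to 0.74 ± 0.68) and Col12a1 (0.06 ± 0.54 to -0.06 ± 0.67) moved by less than their SE.

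**Figure D3:**
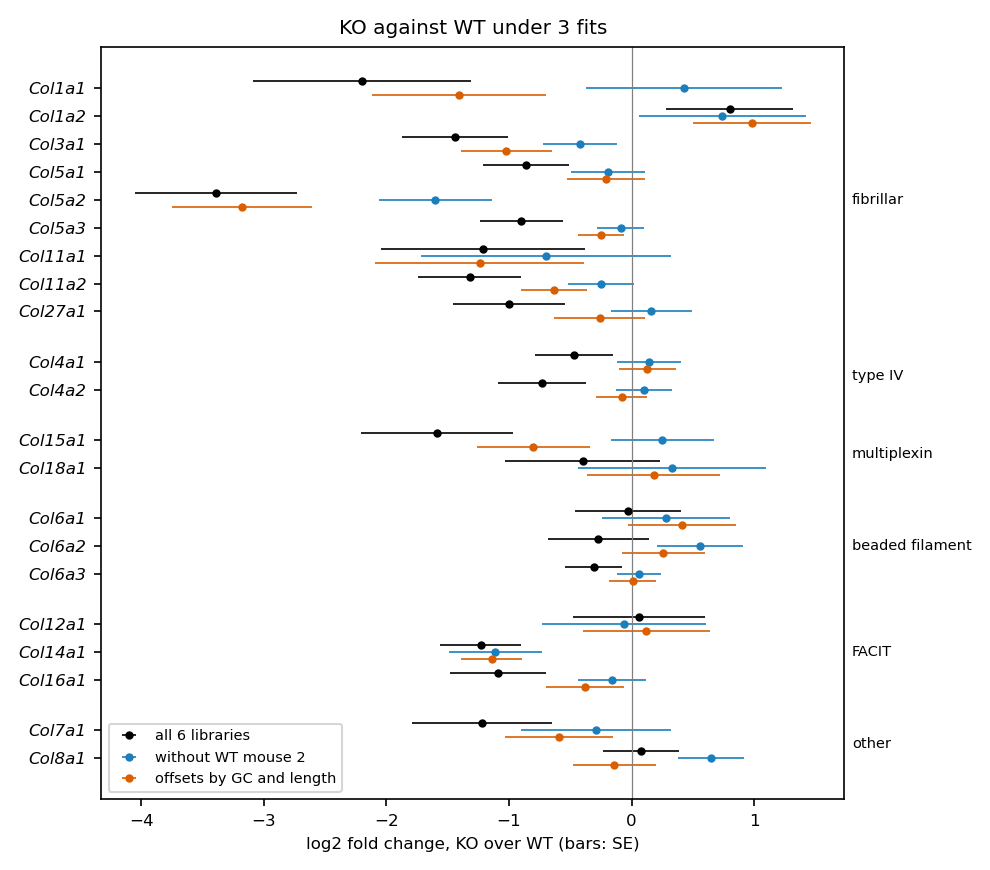
Log2 fold change of KO over WT (bars are SE) for the 21 chains with a mean of at least 5 CPM, from the fit of all 6 libraries, the fit without WT mouse 2 and the fit with offsets by GC content and length. The all-library points are mostly left of 0, from -3.39 for Col5a2, and the points without WT mouse 2 gather around 0 for most chains while Col14a1 and Col5a2 stay to the left.

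WT mouse 2 also differed from WT mouse 1 by the GC content of genes. Over all tested genes with a coding transcript (88.7% of them), the median log2 ratio of WT mouse 2 to WT mouse 1 was -0.74, -0.26, 0.02, 0.23 and 0.51 from the lowest to the highest quintile of GC. The ratio of the KO mean to WT mouse 1 showed no such slope, with 0.04 in the lowest and -0.01 in the highest quintile. Collagen transcripts are richer in GC and longer than most, with medians of 56.2% GC and 6.08 kb over the 30 tested chains against 50.1% and 3.12 kb over all genes.

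Within the top GC quintile lay 16 of the 30 chains, and their median WT ratio was 1.37 where all genes there had 0.51. Among the 277 genes in the top quintile of both GC and length the median was 0.92, and for the 12 chains among them it was 1.46. Over all 30 chains the median was 1.05 against -0.02 for all genes. With offsets that set each library's median to that of the others in bins of GC and length, chosen after seeing the data, 22 of 30 chains were negative, their median was -0.33, and 0 were called where 0.311% of genes were. Whether GC content, length or RNA quality accounts for the collagen level of WT mouse 2 was not tested.

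**Figure D4:**
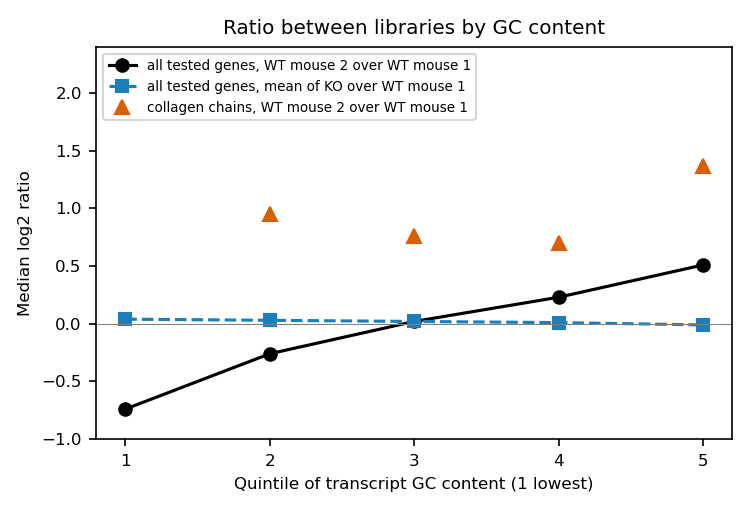
Median log2 ratio between libraries by quintile of transcript GC content, 1 being the lowest: all tested genes for WT mouse 2 over WT mouse 1 (circles) and for the KO mean over WT mouse 1 (squares), and collagen chains for WT mouse 2 over WT mouse 1 (triangles). The circles climb from -0.74 to 0.51, the squares stay between -0.01 and 0.04, and the triangles lie between 0.70 and 1.37 in the quintiles that hold chains, 2 to 5.

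At the level of single libraries, WT mouse 2 was the highest library for 23 of 30 tested chains, where it was the highest for 35.1% of all genes. It was at least 2 times WT mouse 1 in 18 of 30 chains (60.0%), where that held for 12.3% of all genes. WT mouse 1 lay within the range of the 4 KO libraries for 19 of 30 chains (63.3%, all genes 55.2%), above it for 10 and below it for 1. The chains at which WT mouse 2 did not exceed WT mouse 1 among those of at least 5 CPM were Col1a2 and Col12a1.

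Markers of other cells did not all move with the collagen level. The 10 fibroblast markers summed to 543 and 448 CPM in WT, 572 and 761 CPM in clone 1, and 677 and 795 CPM in clone 2, so that the library with the most collagen had the lowest sum. That low sum came mainly from a single member, Dcn, at 127 CPM in WT mouse 2 against 255 to 470 CPM in the other libraries. Pdgfra was instead highest in WT mouse 2, at 168 CPM against 78.5 to 152 CPM, so the order of the sums does not hold for each member. Lum, a fibroblast proteoglycan, never exceeded 5.57 CPM and Col1a1 stayed at or below 70.2 CPM in all libraries but WT mouse 2.

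Epithelial or tumour markers summed to 16.7 and 44.7 CPM in WT against 11.4 to 13.2 CPM in KO, nearly all of it Cdh1 (15.1 and 43.1 CPM in WT), while Epcam and Krt8 stayed under 1 CPM. Pericyte and smooth muscle markers summed to 98.2 and 138 CPM in WT against 78.9 to 105 CPM in KO. Most of it was Cspg4 (47.2 and 80.5 CPM in WT, 33.1 to 39.9 CPM in KO) and Pdgfrb (42.7 and 49.1 CPM in WT, 34.7 to 59.2 CPM in KO). Rgs5 stayed under 1 CPM. Endothelial markers were lower in WT (24.5 and 30.1 CPM) than in KO (48.7 to 62.2 CPM), mostly through Pecam1 (13.0 and 14.9 CPM in WT against 33.9 to 42.9 CPM in KO), while 4 of the 7 tested members were negative in clone 2 against WT. T and NK cell markers summed to 6.70 and 8.26 CPM in WT against 21.9 to 34.5 CPM in KO. The part of any of these cells in the collagen level was not tested.

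Each clone was also set against WT in a fit of 3 groups. Both comparisons use the same WT libraries, so their values stand side by side without counting as 2 observations. For clone 1, 25 of 30 chains were negative with a median of -0.88 (all genes 0.02), and 0 were called where 0.00643% of genes were (0.0% lower). For clone 2, 27 of 30 were negative with a median of -0.94 (all genes -0.03), and 0 were called where 0.00643% were (0.0% lower). At an unadjusted p under 0.05, clone 1 had 8 lower chains (2.85% of all genes) and 2 higher (4.25%), and clone 2 had 11 lower (6.17%) and 0 higher (5.12%). DESeq2 called 3 chains for clone 1 (Col11a1, Col4a5 and Col5a2, with 1.74% of genes) and 5 for clone 2 (Col14a1, Col18a1, Col4a5, Col5a2 and Col7a1, with 2.99%).

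Groups that did not overlap were 14 chains below and 3 above WT for clone 1, where 15.1% and 17.4% of all genes were, and 15 below and 0 above for clone 2, where 25.3% and 26.5% were. Col5a2 had the same log2 fold change in both, -3.39 ± 0.93 (adjusted p = 0.443 for clone 1 and 0.311 for clone 2). Without WT mouse 2 it came to -1.61 ± 0.56 in clone 1 and -1.60 ± 0.56 in clone 2. Col14a1 came to -0.90 ± 0.31 in clone 1 and -1.67 ± 0.31 in clone 2 (adjusted p = 0.601 and 0.161), or to -0.78 and -1.54 without that library. Col11a1 came to -3.09 ± 0.48 in clone 1 (adjusted p = 0.179) and -0.42 ± 0.44 in clone 2 (adjusted p = 0.634), or to -2.59 and 0.09 without it.

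Col18a1 and Col7a1 came to 0.23 ± 0.43 and -0.66 ± 0.47 in clone 1, and to -1.56 ± 0.44 and -2.15 ± 0.49 in clone 2 (adjusted p = 0.847, 0.726, 0.326 and 0.242). Without WT mouse 2 they came to 0.96 and 0.27 in clone 1, and to -0.82 and -1.21 in clone 2. In the same fit the medians of the 30 chains were -0.21 for clone 1 and -0.26 for clone 2. In that fit 0 of the 30 chains were called for clone 1, where 0.361% of genes were, and 1 for clone 2, Col7a1, where 1.16% were.

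The contrast of clone 2 with clone 1 does not use WT mouse 2 for its fold changes and so compares collagen between tumours of the same genotype. The summed collagen of the clones overlapped, and of the 30 chains 14 had a positive and 16 a negative fold change, with a median of -0.11 (all genes -0.02). Among chains of at least 5 CPM the smallest p belonged to Col12a1, Col11a1, Col18a1, Col7a1 and Col14a1, of which Col11a1 stood higher in clone 2 and the other 4 lower. In the fit with all 6 libraries 0 of 30 chains were called by edgeR's quasi-likelihood test, and 0.0% of all genes were. At an unadjusted p under 0.05, 1 chain was higher, where 1.32% of genes were, and 5 were lower, where 1.91% were.

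Col11a1 came to 2.67 ± 0.47 on the log2 scale (SE, adjusted p = 0.359), with 7.48 and 9.07 CPM in clone 2 against 0.872 and 1.72 CPM in clone 1. Col12a1 came to -1.61 ± 0.26 (adjusted p = 0.281), Col18a1 to -1.79 ± 0.44 (adjusted p = 0.707), Col7a1 to -1.49 ± 0.48 and Col14a1 to -0.77 ± 0.31 (adjusted p = 1.0 for both). Col6a4, named after its values were seen, came to -2.95 ± 0.59 (adjusted p = 0.445). For each of these 6 chains the libraries of the clones did not overlap. Over the 30 chains that held for 5 higher and 11 lower in clone 2, where 21.8% and 22.7% of all genes did so.

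The spread in that fit includes the distance between the WT libraries. A fit of the 4 KO libraries alone, chosen after seeing the data, called 4 of the 30 chains, where 0.522% of 15141 genes were called. Col12a1 (-1.61 ± 0.18, adjusted p = 0.0308), Col7a1 (-1.49 ± 0.16, adjusted p = 0.0308), Col18a1 (-1.78 ± 0.23, adjusted p = 0.0442) and Col11a1 (2.68 ± 0.35, adjusted p = 0.0456) passed there. With either WT library left out, the other stands alone in its group and adds no spread. Those fits thus rest on the same 4 KO libraries for this contrast and are not further support. Without WT mouse 1 the log2 differences were again -1.61 for Col12a1, -1.49 for Col7a1, -1.78 for Col18a1 and 2.68 for Col11a1. DESeq2 on all 6 libraries called Col11a1, Col12a1, Col18a1 and Col6a4 (0.752% of genes), and with GC and length offsets 0 chains were called.

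**Figure D5:**
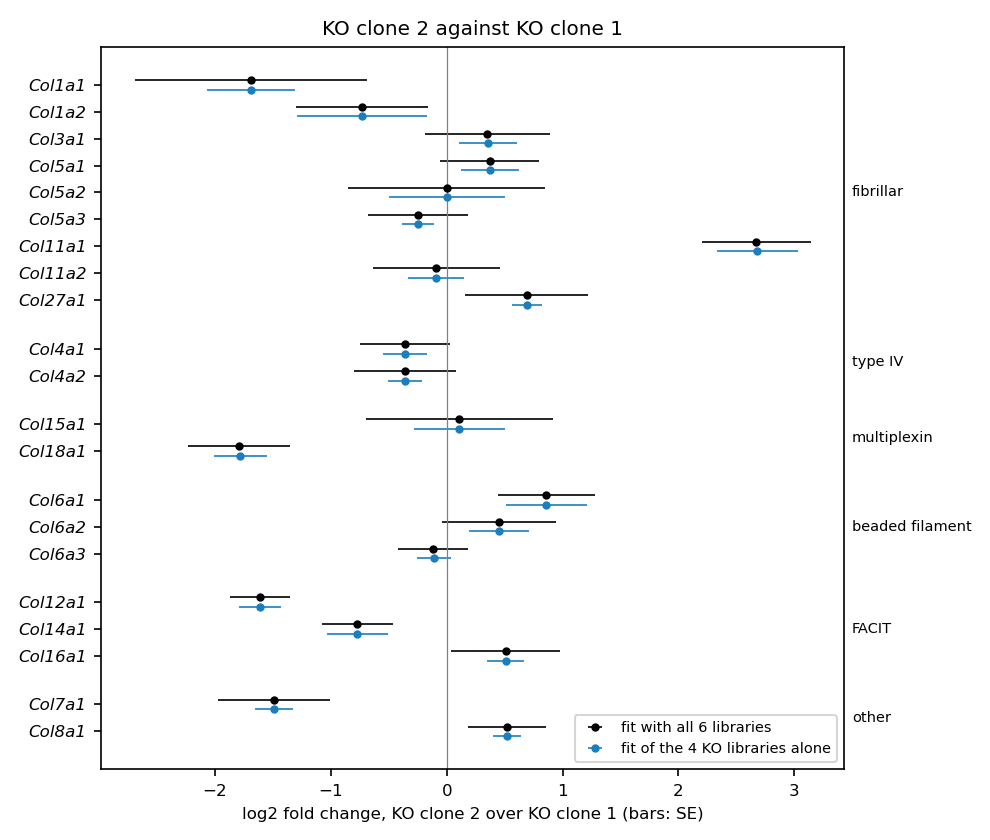
Log2 fold change of KO clone 2 over KO clone 1 (bars are SE) for the 21 chains with a mean of at least 5 CPM, from the fit with all 6 libraries and from the fit of the 4 KO libraries alone. Col11a1 lies at 2.67 in the first and 2.68 in the second, Col12a1, Col18a1 and Col7a1 lie between -1.79 and -1.49, and the second fit has the shorter bars.

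Markers of other cells differed between the clones as well. Keratinocyte markers summed to 0.969 and 2.86 CPM in clone 1 and 15.2 and 18.5 CPM in clone 2. Most of the clone 2 sum was Krt14 (13.3 and 16.4 CPM), while Krt5, Krt1 and Trp63 stayed under 1 CPM in every library. The difference in the sum is thus mainly that of 1 gene, and whether keratinocytes were present was not tested. Col7a1, which keratinocytes are known to make in skin, stood at 80.2 and 92.4 CPM in clone 2 against 211 and 274 CPM in clone 1. Fibroblast marker sums, of which Dcn is the largest part, overlapped between the clones (572 and 761 CPM against 677 and 795 CPM). Of the 10 members, 3 lay higher in clone 2 without overlap (21.8% of all genes) and 2 lower (22.7%), Dpt and Postn among them. Dpt stood at 20.1 and 20.8 CPM in clone 1 against 74.7 and 74.7 CPM in clone 2, a log2 difference of 1.87 ± 0.25 (adjusted p = 0.181). Postn stood at 69.1 and 44.1 CPM against 15.1 and 12.6 CPM, a difference of -2.03 ± 0.29 (adjusted p = 0.181). Both were named after their values were seen. Endothelial sums overlapped (62.2 and 50.7 CPM against 48.7 and 53.4 CPM). The part of these cells in the differences was not tested.

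Of 35 genes for collagen making and processing, 32 were tested. In KO against WT 17 were negative, their median was -0.04 and 0 were called. At an unadjusted p under 0.05, 1 was higher and 2 were lower, where 6.25% and 7.38% of all genes were. The median of this list was thus near that of all genes, 0.00. P4hb, a subunit of the collagen prolyl hydroxylase, had 1172 and 1302 CPM in WT, with 801 to 1044 CPM among the KO libraries. Serpinh1, the collagen chaperone HSP47, had 500 and 525 CPM in WT, with 427 to 720 CPM among the KO libraries. The members with the smallest p were Pcolce2, an enhancer of procollagen trimming (1.12 ± 0.43, adjusted p = 0.343), P4ha2 of the prolyl hydroxylase (-0.66 ± 0.20, adjusted p = 0.286) and the transcription factor Creb3l1 (-1.70 ± 0.68, adjusted p = 0.350). Without WT mouse 2 they came to 0.63, -0.37 and 0.60.

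Between the clones the largest difference on that list was in Lox, the enzyme that starts collagen crosslinks. It stood at 6.74 and 3.10 CPM in clone 1, 65.9 and 64.7 CPM in clone 2, and 14.4 and 5.85 CPM in WT. Clone 2 lay above all other libraries. The log2 difference was 3.73 ± 0.55 (adjusted p = 0.201 with all 6 libraries, 0.0179 with the KO libraries alone). The other members with the smallest p were Loxl1 (1.59 ± 0.55), Adamts14 (-0.86 ± 0.24) and Loxl4 (-0.79 ± 0.26), with adjusted p of 1.0, 0.908 and 1.0. With the KO libraries alone these were 0.25, 0.0494 and 0.187, so that Adamts14 passed there by a narrow margin. The fits without 1 WT library rest on the same KO libraries for this contrast and are not further support.

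Of 12 collagen receptors, 10 were tested, with a KO to WT median of 0.13 and 0 called. At an unadjusted p under 0.05, 3 were higher and 0 lower, where 6.25% and 7.38% of all genes were. Lair1, an inhibitory receptor for collagen on leukocytes, stood at 279 and 155 CPM in WT, 351 and 313 CPM in clone 1, and 447 and 428 CPM in clone 2. All KO libraries lay above both WT libraries, and the log2 fold change was 0.83 ± 0.28 (adjusted p = 0.318), or 0.44 without WT mouse 2. The integrin subunits Itga1 (1.02 ± 0.33) and Itga2 (1.96 ± 0.84) had adjusted p of 0.297 and 0.366, and Itga2 stayed under 1 CPM. Mrc2, an endocytic receptor that takes up collagen, stood at 10.2 and 19.5 CPM in WT, 3.32 and 2.29 CPM in clone 1, and 12.6 and 12.8 CPM in clone 2, a difference between the clones of 2.18 ± 0.39 (adjusted p = 0.359, or 0.0254 with the KO libraries alone).

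Of 15 partners of collagen IV in basement membranes, 13 were tested, with 10 negative, a KO to WT median of -0.44 and 0 called. At an unadjusted p under 0.05, 0 were higher and 2 lower, where 6.25% and 7.38% of all genes were. Nid2, which links laminin to collagen IV, had 13.4 and 16.1 CPM in WT against 5.42 to 6.03 CPM in KO. The groups did not overlap, and the log2 fold change was -1.35 ± 0.19 (adjusted p = 0.0561) with all libraries and -1.25 without WT mouse 2 (adjusted p = 0.0581). Nid2 thus did not pass in the first fit. It passed by DESeq2 (adjusted p = 3.9e-07), where 3.21% of all genes were called. It also passed in edgeR without a filter on low counts (adjusted p = 0.0306, 111 genes called) and with GC and length offsets (adjusted p = 0.0449, 0.311% of genes called). Hspg2, the proteoglycan perlecan, had 133 and 383 CPM in WT against 74.7 to 123 CPM in KO. Its log2 fold change of -1.38 ± 0.39 (adjusted p = 0.268) became -0.44 without WT mouse 2. It passed by DESeq2 as well (adjusted p = 0.0406), but not without a filter or with the offsets. The laminin chain Lama4 followed the clones instead, with 2.11 and 2.08 CPM in clone 1 and 11.0 and 9.02 CPM in clone 2, a log2 difference of 2.25 ± 0.45 (adjusted p = 0.462, or 0.0175 with the KO libraries alone).

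Several chains share exon positions with another gene, which touches how their counts can be read. Exons of 13 chains overlap an exon of another gene in GENCODE M21, among them Col5a1, Col3a1, Col15a1, Col6a4 and Col9a3. Where the other gene lies on the opposite strand, as for Col9a3 and Tcfl5 or Col10a1 and Nt5dc1, reads of both cannot be told apart without strand.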

How the data were processed

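Per the labels' protocols, total RNA of 6 libraries was depleted of ribosomal RNA and prepared with TruSeq. The authors deposited estimated counts, as whole numbers by gene symbol, which were used as they stand. The submitters' processing notes name Salmon 0.7.2 and mm10. How transcripts were combined into genes, from which transcript set, and whether strand was used is not stated.

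Differences were tested in edgeR 4.0.16 (R 4.3.3) with its quasi-likelihood F test and TMM factors, over the 15560 genes that filterByExpr kept (minimum count 10, minimum total 15). P-values were two-sided and adjusted by the Benjamini-Hochberg method, with a threshold of 0.05. KO was set against WT in a fit of 2 genotypes, and the clones in a fit of 3 groups. CPM were computed from the deposited counts on library sizes scaled by TMM. The SE was taken from the fold change and its F value. The fits were tested on simulated counts. In KO against WT they recovered 6 of 50 genes simulated at a log2 change of 1 and 46 of 50 at 2. For clone 2 against WT and against clone 1 they recovered 3 of 50 at 1, and 39 and 40 of 50 at 2. Changes near 1 on the log2 scale could thus rarely be called. The simulation gave all genes the same dispersion (the spread beyond counting noise) and, for KO against WT, both clones the same change. No simulated library deviated as WT mouse 2 did, so these shares may not hold for the real libraries. The libraries come from separate mice, but mice with tumours of 1 clone share that clone. In the fit of 3 groups the p-values thus measure the spread between these mice. In the fit of 2 genotypes the difference between the clones counts as spread as well, and the KO libraries are not independent replicates of the genotype.

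Positions, transcript length and GC content are those of GENCODE M21 (GRCm38), matched by symbol for all 44 chains, with the longest coding transcript as length. The listed FACIT chain Col21a1 was not used here. Promoter windows are from RefSeq (GRCm38.p6).

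The chains and lists were chosen with earlier results of these data known. Fold changes are given for chains with a mean of at least 5 CPM or a call, and for up to 4 tested members per direction of each other list. Col4a5, Col6a4, Dpt and Postn are outside this rule. Same-numbered mice were not treated as pairs. Alternatives were RLE factors, 2 other filters, DESeq2 1.42.0, the mouse number as a block, Rn45s left out, the mean of the clones, each library left out, and, chosen after seeing the data, the KO libraries alone and offsets by GC content and length in 5 bins each.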

Additional observations from a re-analysis of the deposited data

Results flagged for a closer look

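Among the 4 KO libraries, Col3a1 in KO clone 1 mouse 1, at 1837 CPM, lay far below the other 3 (2980 to 3215 CPM). The gap took a share of 0.82922 of the range, just past the critical value of Dixon's test. The gap was looked at for 22 chains, and chance flags about 1 group in 20.

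Col12a1 and Col6a4 had the clones on opposite sides of both WT libraries, clone 1 above and clone 2 below. The difference of clone 2 from clone 1 was -1.61 on the log2 scale for Col12a1 (edgeR adjusted p = 0.281) and -2.95 for Col6a4 (adjusted p = 0.445), so neither passed in the fit with all 6 libraries. With the KO libraries alone the adjusted p was 0.0308 and 0.0567.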

How the results depend on the processing

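Depth limits the chains under 5 CPM, and WT mouse 2 has the fewest counts of the 6 libraries. The number of chains called in KO against WT was 0 with all libraries, 1 without a filter on low counts (Col5a2) and 4 by DESeq2, and it ran from 0 to 17 as each library was left out, the 17 without WT mouse 1. For clone 1 against WT it was 2 without a filter (Col11a1 and Col5a2), 3 by DESeq2 and 0 to 19 by library left out. For clone 2 against WT it was 4 (Col14a1, Col1a1, Col5a2 and Col7a1), 5 and 0 to 20. Between the clones it was 2 (Col11a1 and Col6a4), 4 by DESeq2, 4 with the KO libraries alone and 0 to 5 by library left out. The cause was not tested.

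The median of the chains ran from -1.31 to -0.09 in KO against WT as each library was left out (over the 33 chains that passed the filter without WT mouse 2 and the 32 without WT mouse 1, of which the 30 tested with all libraries had -0.12 and -1.34), from -1.15 to -0.21 for clone 1 and from -1.32 to -0.26 for clone 2, with the higher value without WT mouse 2 in each. With GC and length offsets it was -0.33 for KO against WT, -0.55 for clone 1, -0.50 for clone 2 and 0.08 between the clones, where it had been -0.11. RLE factors, Rn45s left out and the stricter filter changed no call of a chain.

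Signs of single chains in KO against WT turned for Col12a1 with the mean of the clones (-0.15), and with the offsets for Col4a1 (0.13), Col18a1 (0.18), Col6a1 (0.41), Col6a2 (0.26), Col6a3 (0.01) and Col8a1 (-0.14). As each library was left out, the ranges that crossed 0 were -3.08 to 0.43 for Col1a1, -1.64 to 0.16 for Col27a1, -0.90 to 0.14 for Col4a1, -1.25 to 0.10 for Col4a2, -2.38 to 0.25 for Col15a1, -0.91 to 0.33 for Col18a1, -0.30 to 0.28 for Col6a1, -0.79 to 0.56 for Col6a2, -0.60 to 0.06 for Col6a3, -0.22 to 0.29 for Col12a1, -0.33 to 0.65 for Col8a1 and -2.56 to 0.60 for Creb3l1. For clone 1 against WT they were -0.25 to 0.96 for Col18a1 and -1.22 to 0.27 for Col7a1, and for clone 2 against WT -0.80 to 0.09 for Col11a1. In the 4 comparisons together, 27 values of single genes turned their sign, 636 kept sign and side of the threshold and 89 passed it newly.

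With the mouse number as a replicate block, 0 chains were called in each comparison, and the medians were -0.81 for KO against WT, -0.91 and -0.90 for the clones against WT and -0.12 between the clones. The numbers were not taken as pairs, since the deviations of same-numbered mice correlated at -0.135, 0.05 and 0.197 over the group pairs. Over the whole table the calls in KO against WT were 21 with all libraries, 15 with the block, 43 with the offsets, 111 without a filter and 499 by DESeq2. They were 1, 123 and 271 for clone 1, 1, 229 and 465 for clone 2, and 0, 53 and 117 between the clones, for the first fit, without a filter and by DESeq2.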
